A study of Mus musculus with 2 samples.

Results

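The secernin genes Scrn1, Scrn2 and Scrn3 are described here together with Wipf3, which lies beside Scrn1 on the opposite DNA strand. These 4 genes were taken by name from the 33757 features counted, and they were read in the 762 of 768 cells that passed the cell filter. Scrn1 leads the set because it had the largest rise after Nr1d1, among called genes with a mean of at least 3 on the log2 CPM scale, when cells were ordered by the brightness of a Venus reporter. Scrn1 was thus chosen by its counts in the Venus bins, and its levels along the reporter are given as a description with no test. Scrn2, Scrn3 and Wipf3 were taken by family or by position.

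The cells were NIH3T3 mouse embryonic fibroblasts of the line named NIH3T3-Rev-VNP1-H2B-iRFP, which carries a Venus reporter of Nr1d1 (the clock repressor also called Rev-erb alpha) and a nuclear H2B-iRFP marker. All cells shared both reporters, were not synchronized and were grown close to confluence. Single cells were sorted into 2 plates of 4 Venus bins each, from the dimmest (bin 1) to the brightest (bin 4), and full-length RNA was sequenced by FLASH-seq. Plate 1 held cells of the high iRFP sort and plate 2 cells of the low iRFP sort, so that plate and iRFP sort cannot be told apart. A bin always occupied the same block of 6 columns of wells, and Venus brightness and plate position cannot be told apart either.

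Each group of plate and bin held 94 to 96 passing cells. The total counts per cell ran from 151173 to 1618022, and the totals per group from 76042157 to 86612194. Cell names begin with their plate, so that 0 shared names between the plates was fixed in advance. All 11 fibroblast markers of a fixed list were found in more than 50% of all cells, with 22750 to 28978 CPM in all per group (counts scaled to a total of 1000000). Thy1, 1 of the 11, was in 59.5% of cells on plate 1 and 44.1% on plate 2. The endothelial markers that were in the table summed to 0.340 to 0.796 CPM and the epithelial ones to 3.38 to 7.74 CPM. By share of cells, the epithelial marker Cdh1 was in 43.4% and the blood marker Lyz2 in 53.0%. Reads carried no molecular identifiers, and every interval below is an exact 95% interval that covers counting error only.

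Secernins are cytosolic proteins related by sequence to a family of peptidases with an N-terminal nucleophile. Secernin 1 was first described as a factor that promotes exocytosis in mast cells, and in neurons it has been placed on the endoplasmic reticulum through the VAP membrane proteins. Wipf3 belongs to the WASP-interacting proteins, which bind actin and regulators of its branching, and serves only as a check on reads from the region that it shares with Scrn1.

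The promoters are shown because Scrn1 was picked along the reporter of a clock gene, and clock factors bind short, known elements. The set of promoters used here (RefSeq, assembly GRCm38.p6) held 3 of the 4 members, and Scrn2 was not in it. The 250 bases before each start are printed 5′ to 3′ on the gene's own strand, in lower case, with every match to the searched motifs in capitals.

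Scrn1, chr6:54566383-54566632, minus strand: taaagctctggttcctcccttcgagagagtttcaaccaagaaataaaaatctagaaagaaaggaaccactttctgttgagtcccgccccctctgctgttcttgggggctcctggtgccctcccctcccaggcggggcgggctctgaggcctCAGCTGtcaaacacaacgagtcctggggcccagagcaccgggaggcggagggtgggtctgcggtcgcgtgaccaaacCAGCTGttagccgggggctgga

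Scrn3, chr2:73312402-73312651, plus strand: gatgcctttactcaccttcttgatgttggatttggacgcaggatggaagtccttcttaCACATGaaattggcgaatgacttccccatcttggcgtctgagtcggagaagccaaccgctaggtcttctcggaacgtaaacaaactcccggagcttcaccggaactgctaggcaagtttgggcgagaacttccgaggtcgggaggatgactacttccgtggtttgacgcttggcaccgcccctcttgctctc

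Wipf3, chr6:54429436-54429685, plus strand: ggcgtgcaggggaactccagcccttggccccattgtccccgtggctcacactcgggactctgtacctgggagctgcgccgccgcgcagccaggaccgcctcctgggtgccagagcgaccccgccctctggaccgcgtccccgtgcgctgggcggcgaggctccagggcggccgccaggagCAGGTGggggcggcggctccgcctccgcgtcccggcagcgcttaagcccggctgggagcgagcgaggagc

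Both strands of 32851 promoters of the same length were searched. The E-box CACGTG, to which CLOCK and BMAL1 bind, was in 6.02% of them, its variant CACGTT in 3.85%, the D-box TTANGTAA in 2.06%, and AGGTCA, the core of the element bound by the ROR and REV-ERB receptors, in 14.0%. None of these letters occurred in the windows of Scrn1, Scrn3 or Wipf3. The loose pattern CANNTG, which includes CACGTG, was in 66.2% of all promoters and is what the capitals mark: Scrn1 held 2 matches, starting 99 and 22 bases before the start, Scrn3 held 1 at 192 bases and Wipf3 held 1 at 70 bases. A match to such a short pattern is a description of the letters and not of a binding site.

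Scrn1 (ENSMUSG00000019124.11) was at the lowest level in the dimmest cells of both plates and rose with each bin. On plate 1 its level was 1.22 CPM in bin 1, 9.18 in bin 2, 16.6 in bin 3 and 22.3 in bin 4. On plate 2 it was 4.56, 13.2, 21.0 and 22.9 CPM in the same order. The levels of bin 1 lay below those of every other bin on both plates, whereas plates 1 and 2 came close to each other only in bin 4.

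The mean over the 2 plates was 2.89 ± 2.36 CPM in bin 1, 11.2 ± 2.81 in bin 2, 18.8 ± 3.17 in bin 3 and 22.6 ± 0.443 in bin 4 (SD, n = 2). Bins 3 and 4 came closest, with 21.0 CPM in bin 3 of plate 2 and 22.3 CPM in bin 4 of plate 1. The fitted rise was 0.99 on the log2 scale per bin, and it was 1.31 within plate 1 and 0.76 within plate 2. Among called genes above the same limit of 3 on the log2 CPM scale, just above it stood the reporter transcript, listed as YFP, with 1.63 and Nr1d1 with 1.38, and just below stood Parvg with 0.85, the feature ENSMUSG00000137470.1 with 0.79 and Dbp with 0.74. Below that limit 40 called genes had a larger fitted rise than Scrn1, so its place holds only among genes of at least that level.

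**Figure D1:**
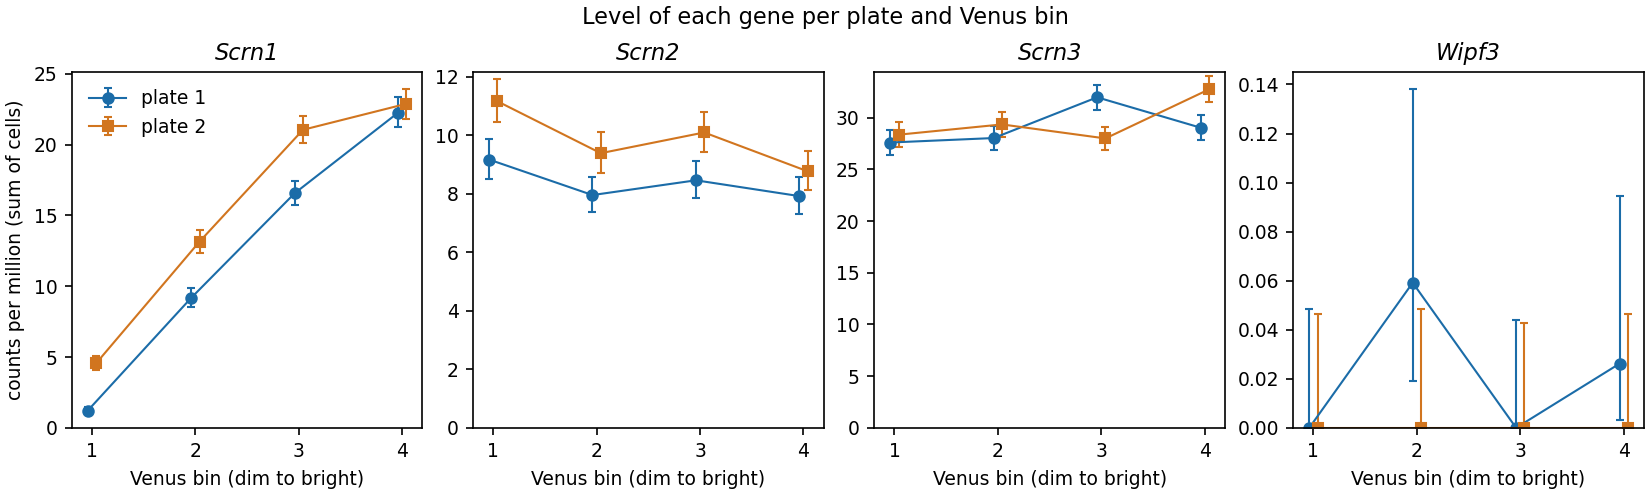
CPM of Scrn1, Scrn2, Scrn3 and Wipf3 (vertical axes, each from 0 and scaled per gene) in the sum of cells of each Venus bin (horizontal axis, bin 1 dimmest) on plate 1 and plate 2; bars are exact 95% Poisson intervals. Scrn1 climbs from 1.22 and 4.56 CPM to 22.3 and 22.9 CPM, while Scrn2 and Scrn3 stay within 7.92 to 11.2 and 27.6 to 32.7 CPM.

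The rise was mostly one of how many cells held Scrn1. On plate 1 a Scrn1 count was found in 5 of 95 cells of bin 1 (5.26%, exact binomial interval 1.73 to 11.9%), in 28.1% of bin 2, in 46.9% of bin 3 and in 70.8% of bin 4 (60.7 to 79.7%). On plate 2 the shares were 21.1% (13.4 to 30.6%), 39.4%, 69.8% and 78.7% (69.1 to 86.5%). Each bin had a higher share than the one before it on both plates. The mean share was 13.2 ± 11.2% in bin 1 and 74.8 ± 5.58% in bin 4 (SD, n = 2 plates).

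The shares were much the same at equal depth. After each cell was thinned to 150000 counts, which all 762 cells reached, a count remained in 5.26, 27.1, 45.8 and 67.7% of cells of bins 1 to 4 on plate 1. On plate 2 the thinned shares were 20, 37.2, 61.5 and 74.5%.

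Among the cells that held it, the level of Scrn1 differed less between bins than the share of cells did. The median in cells with a count was 18.8, 32.1, 30.1 and 26.7 CPM in bins 1 to 4 of plate 1, and 22.2, 31.6, 29.0 and 25.3 CPM on plate 2. The median of bin 1 was the lowest on both plates, though on plate 1 it came from 5 cells. From bin 1 to bin 4 the level was 18.2-fold higher on plate 1 and 5.02-fold on plate 2, and 7.81-fold in the mean. The share of cells was 13.5-fold and 3.74-fold higher, and 5.68-fold in the mean, so that the size of both differed by over 1.5 times between the plates. The level summed over positive cells was 1.29-fold higher on plate 1 and 1.30-fold on plate 2.

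**Figure D2:**
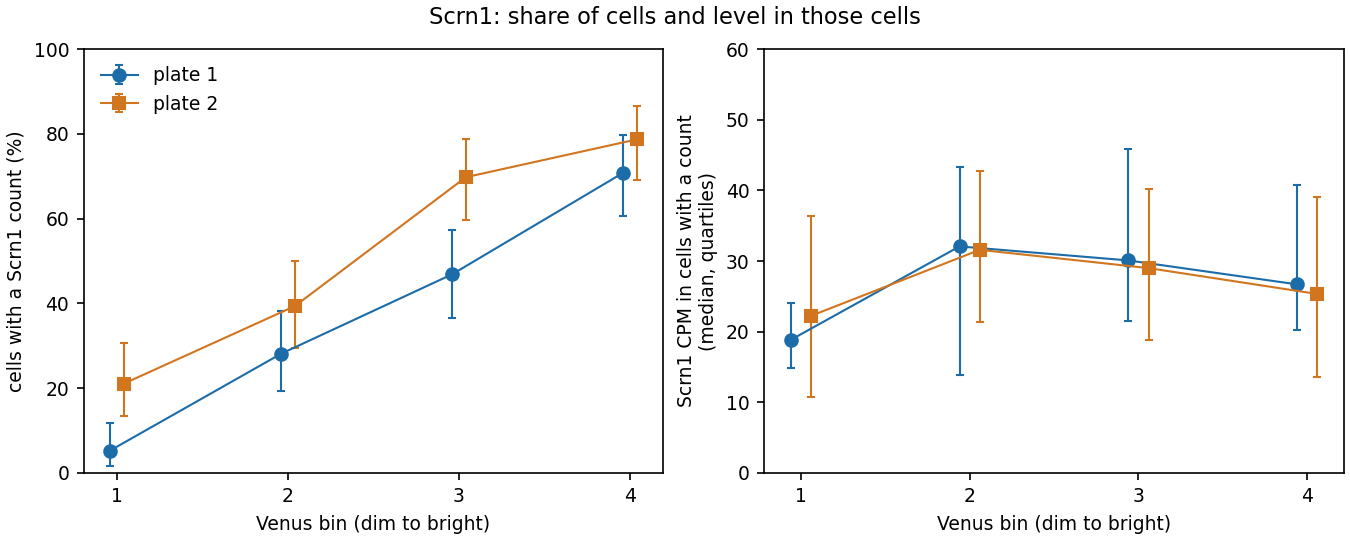
Left, percentage of cells with a Scrn1 count by Venus bin on each plate, with exact 95% binomial intervals. Right, median Scrn1 CPM in the cells with a count, with bars from the lower to the upper quartile: the share climbs from 5.26 and 21.1% to 70.8 and 78.7%, and the medians lie between 18.8 and 32.1 CPM.

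Per cell, Scrn1 counts were either absent or well above the first few reads. Of the 762 cells, 419 had no Scrn1 count and 16 had 1 to 4. The remaining cells had 5 or more: 28 cells had 5 to 9, 97 had 10 to 19, 139 had 20 to 39, 57 had 40 to 79 and 6 had 80 to 85. The variance of the counts was 24.8 times their mean for Scrn1, against 6.47 for Scrn2 and 9.98 for Scrn3, whose counts were spread over most cells.

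Scrn2 (ENSMUSG00000020877.12), a close relative of Scrn1 of which less is known, varied little between bins. Its level was 9.17, 7.95, 8.46 and 7.92 CPM in bins 1 to 4 of plate 1 and 11.2, 9.38, 10.1 and 8.76 CPM on plate 2. Bin 1 was highest on both plates, and plate 2 lay above plate 1 in every bin. The fitted trend was −0.09 ± 0.03 (SE) on the log2 scale per bin, with an adjusted p of 0.122 in edgeR's quasi-likelihood test.

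Scrn3 (ENSMUSG00000008226.15), which carries a glyoxylyl group at its N-terminus, was the most abundant of the set. Its level was 27.6, 28.0, 32.0 and 29.0 CPM on plate 1 and 28.4, 29.4, 28.0 and 32.7 CPM on plate 2. The highest bin differed between plates, and neighbouring bins overlapped, though bin 1 lay below bin 4 on each plate. The trend was 0.03 ± 0.03 (SE) on the log2 scale per bin, with an adjusted p of 0.544 in edgeR.

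Across all 18430 genes tested by edgeR with Benjamini-Hochberg adjustment, 15.4% were called at an adjusted p under 0.05, 6.78% higher and 8.64% lower toward bright Venus. Of Scrn2 and Scrn3, 0 of 2 were called. At an unadjusted p under 0.05, which 29.8% of all genes passed, there was 1, Scrn2, and DESeq2, which called 26.8% of the 13427 genes it tested, called 0. The p-values measure only how far the bin-to-bin changes differ between the 2 plates, which nothing in the labels describes as separate cultures.

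Scrn2 and Scrn3 were found in most cells of every bin. Over all cells, a Scrn2 count was present in 643 cells (84.4%), with a median of 7 counts in them, and a Scrn3 count in 738 cells (96.9%), with a median of 24. Scrn1 was present in 343 of the 762 cells, yet the median count in those cells was 23. A typical cell with Scrn1 thus held about as many of its counts as a typical cell held of Scrn3. These counts are not scaled for length, and the joined exons of Scrn1 are longer (8613 against 4815 bases in GENCODE M21).

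Thinning brought the shares of the weakly expressed Scrn2 down while that of Scrn1 moved little. The mean Scrn2 share was 82.6% in bin 1 and 86.3% in bin 4, and 62.1% and 59.0% at 150000 counts per cell. For Scrn3 the shares were 97.4% and 97.4%, and 89.5% and 92.7% after thinning. No order of the bins was read from the Scrn2 or Scrn3 shares.

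Per length, the order of the family was Scrn3, Scrn2, Scrn1. Divided by the length of all exons joined in GENCODE M21 (GRCm38), the level over all cells was 6.10 CPM per kb for Scrn3 (chromosome 2), 4.44 for Scrn2 (chromosome 11), 1.62 for Scrn1 (chromosome 6) and 0.00153 for Wipf3 (chromosome 6). The exon lengths used were 4815, 2050, 8613 and 7114 bases. The authors' counts were made on GRCm39, so these lengths come from another annotation than the counts.

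Wipf3 (ENSMUSG00000086040.9) was close to absent. It had 7 counts in all, from 3 cells, at 0.0592 CPM in bin 2 and 0.0262 CPM in bin 4 of plate 1, and 0 counts in the other 6 groups. A count of 0 in a group allows up to 0.0346 to 0.0395 CPM (3 counts). Wipf3 did not pass the filter on low counts and was not tested.

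The check of the shared region bears on whether Scrn1 reads could belong to Wipf3. In GENCODE M21 the genes overlap by 2596 bases on opposite strands, and their exons share 242 bases, or 2.81% of the Scrn1 exons. Whether counting used the strand is not given in the sources used here. The 3 cells with Wipf3 counts held 4, 2 and 1 of them, beside 14, 22 and 22 Scrn1 counts, and plate 2, where Scrn1 was the higher, had 0 Wipf3 counts, which allows up to 0.00933 CPM.

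The secernin transcripts shared only short stretches on these gene models. The longest identical stretch between transcripts was 21 bases for Scrn1 and Scrn2, 17 for Scrn1 and Scrn3, and 13 for Scrn2 and Scrn3, against reads of 75 bases.

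Between plates, Scrn1 was lower on plate 1, that of the high iRFP sort. Over all bins its level was 12.3 CPM on plate 1 and 15.6 CPM on plate 2, a ratio of 1.26 (1.21 to 1.31). The share of cells was 37.9% (33.0 to 42.9%) and 52.2% (47.1 to 57.4%). Plates were 1 sample each, so this difference has no replicate check.

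The gap between plates narrowed along the bins. In bin 1 plate 2 stood at 4.56 CPM against 1.22 CPM, and in bin 4 at 22.9 against 22.3 CPM. Scrn2 was also higher on plate 2, at 9.86 against 8.36 CPM (ratio 1.18, 1.12 to 1.24), whereas Scrn3 was at 29.6 and 29.2 CPM (ratio 1.01, 0.984 to 1.04). The median mitochondrial share per group ran from 7.02 to 9.77% and was lower on plate 2, and its part in these ratios was not tested.

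The genes whose levels across cells were most like that of Scrn1 were found by Spearman's correlation on each plate (383 and 379 cells) over the 8624 genes with a mean of at least 10 CPM. The central 95% of these genes lay between −0.27 and 0.29 (mean of plates). Cells of a plate are not replicates and differ in depth, so the correlations are descriptions. Cox6c, a subunit of cytochrome c oxidase, was highest with 0.64 on plate 1 and 0.61 on plate 2.

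Next came Sub1, a transcription coactivator, with 0.60 and 0.53, and Cox7b, another cytochrome c oxidase subunit, with 0.57 and 0.48. Gstm2, a glutathione transferase, had 0.52 and 0.47, and Ank, a membrane transporter of pyrophosphate and ATP, 0.50 and 0.50. Among the 10 highest were also Ttc33, Rpl30, Ywhaz and Cct5, whose means were 0.48, 0.47, 0.47 and 0.46. All 10 were the same genes among those of at least 30 CPM, and 9 of 10 by Pearson's correlation of log2(CPM + 1).

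At the other end stood Thy1, a surface glycoprotein of fibroblasts and T cells, with −0.74 on plate 1 and −0.64 on plate 2. Ncam1, a cell adhesion molecule, had −0.61 and −0.48, and Marcks, an actin-binding substrate of protein kinase C, −0.59 and −0.44. Naalad2, a peptidase, had −0.51 and −0.50 and the ribosomal protein gene Rps25 −0.53 and −0.41. No gene of the 8624 was as far from 0 as Thy1.

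Scrn1 and Thy1 were found in different cells. With at least 5 counts as the cut, 323 of the 762 cells held Scrn1 only, 352 Thy1 only, 4 both and 83 neither. Few cells lay near the cut, 16 with 1 to 4 Scrn1 counts and 39 with 1 to 4 Thy1 counts. A Scrn1 count was present in 302 of the 367 cells with no Thy1 count (82.3%) and in 8 of the 356 cells with at least 5 Thy1 counts (2.25%).

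Along the Venus bins the cells with Scrn1 only took the place of those with Thy1 only. On plate 1 the former were 5.26, 28.1, 43.8 and 66.7% of cells in bins 1 to 4, and the latter 89.5, 62.5, 49.0 and 18.8%. On plate 2 they were 18.9, 37.2, 65.6 and 73.4%, against 65.3, 48.9, 20.8 and 14.9%. Both plates moved in the same order, with the higher share of Scrn1 cells on plate 2 in every bin.

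The Thy1 level itself did not fall evenly. It was 85.5, 87.6, 92.0 and 31.1 CPM on plate 1 and 74.1, 71.2, 41.1 and 31.2 CPM on plate 2. On plate 1 Thy1 was near its bin 1 level until bin 3, although fewer cells held it. Between the plates Thy1 went the other way from Scrn1, with 74.8 CPM on plate 1 against 54.0 on plate 2.

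The cells with Scrn1 and those with Thy1 also differed in the level of chromosome 15, on which neither gene lies. The mean of log2(CPM + 1) over 210 genes there, less that over 3529 other genes, had a median of 0.16 on plate 1 and 0.22 on plate 2 in cells with at least 5 Scrn1 counts, and of −0.15 and −0.14 in those with at least 5 Thy1 counts. Chromosome 15 was picked because many of the genes most like Scrn1 lie on it, so this gap is a description. Whether the line holds lineages that differ in chromosome content, and their part in the rise of Scrn1 and in its split from Thy1, was not tested.

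**Figure D3:**
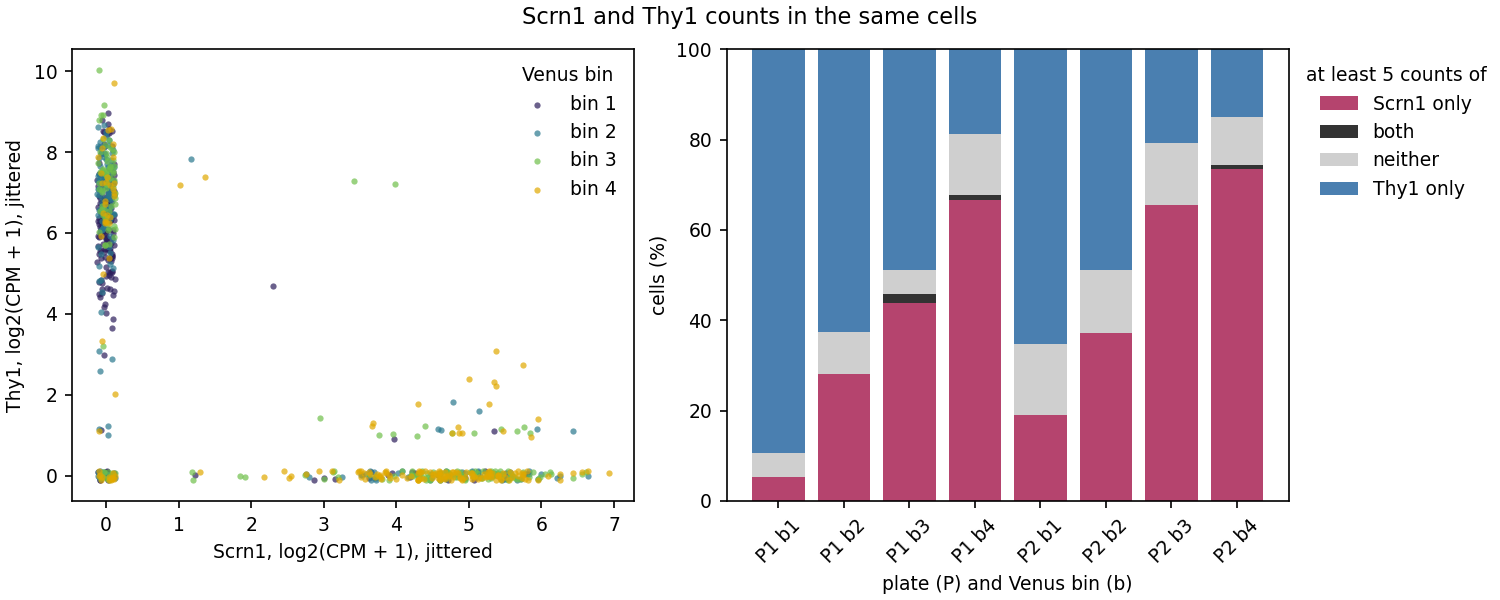
Left, log2(CPM + 1) of Thy1 against Scrn1 in each of the 762 cells, coloured by Venus bin and jittered. Right, percentage of cells per plate (P) and bin (b) with at least 5 counts of Scrn1 only, Thy1 only, both or neither: most cells lie on 1 of the axes, with 4 cells in the class of both.

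Within cells that had no Thy1 count, Scrn1 was high from bin 2 on. This set was chosen after the data were seen. On plate 1 Scrn1 was found in 55.6% of such cells in bin 1 (5 of 9), 77.4% in bin 2, 90.9% in bin 3 and 87.3% in bin 4, and on plate 2 in 54.8, 75.0, 86.8 and 89.9%. Its level in them was 13.7, 25.2, 34.4 and 27.4 CPM on plate 1 and 12.5, 23.5, 25.8 and 25.9 CPM on plate 2.

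The fitted rise in these cells was 0.34 on the log2 scale per bin, against 0.99 in all cells. Thy1 was the gene furthest from 0 in its correlation with Scrn1, so cells without Thy1 mostly held Scrn1. A flatter rise was to be expected from that choice alone, and the value is given with no test. The rise in these cells rested on bin 1, where plate 1 had 9 cells with no Thy1 count. From bin 1 to bin 4 the level rose 2.00-fold on plate 1 and 2.07-fold on plate 2, but from bin 2 to bin 4 only 1.09-fold and 1.10-fold. In all cells the step from bin 2 to bin 4 was 2.42-fold on plate 1 and 1.74-fold on plate 2.

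Scrn1 was correlated with Nr1d1 and the reporter transcript across the bins and far less inside them. The bins were cut on Venus brightness, so a drop inside them was built in for the reporter and genes that follow it. The value across the bins restates the trend for which Scrn1 was chosen. Nr1d1 had a correlation with Scrn1 of 0.47 on plate 1 and 0.40 on plate 2, the rank 25 among the 8624 genes. After cells were ranked within each plate and bin, these values were 0.08 and 0.04, the rank 2394. The reporter transcript YFP went from 0.48 and 0.41 to 0.09 and 0.06.

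The central 95% of genes within bins lay between −0.23 and 0.24. Of the 15 clock genes taken as a reference list, the means within bins ran from −0.22 for Nfil3, a repressor at D-boxes, to 0.18 for Bhlhe41, a repressor at E-boxes, against −0.35 for Nfil3 to 0.43 for Nr1d1 before. Not every gene moved toward 0: Per3, a period gene, went from 0.11 to −0.13 in the mean, Cry2, a cryptochrome, from 0.00 to −0.14, and Arntl, which encodes BMAL1, from −0.15 to 0.11. All 15 lay inside the central range of all genes within bins. Dbp, an activator at D-boxes, had 0.12 on plate 1 and −0.12 on plate 2 within bins.

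**Figure D4:**
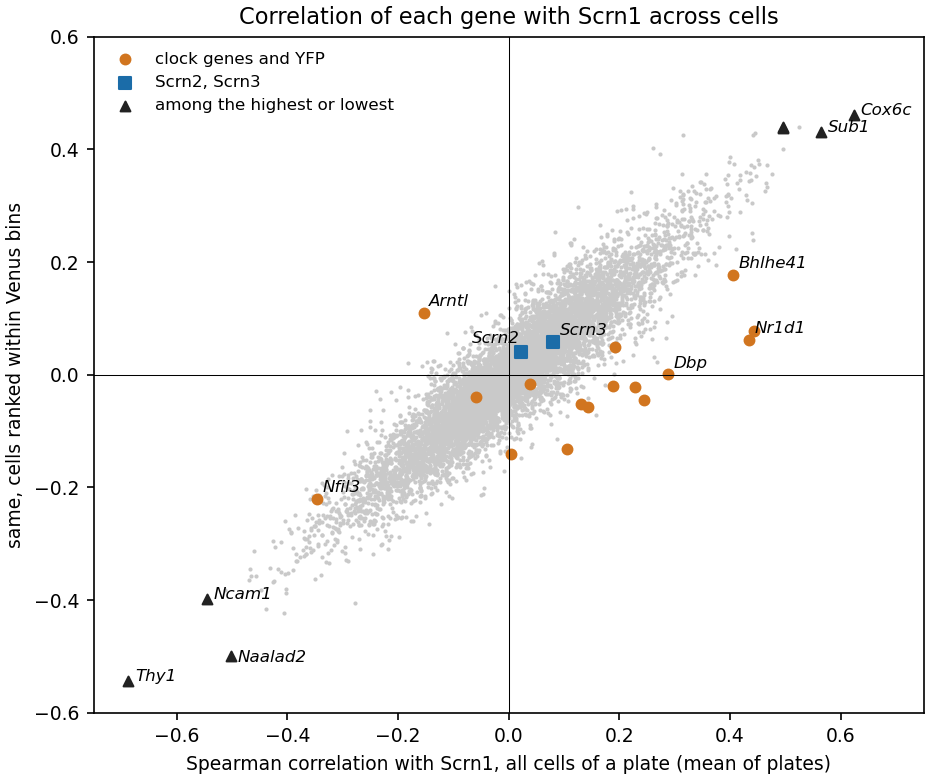
Spearman correlation of each of 8624 genes (grey), the clock genes and YFP (orange) and Scrn2 and Scrn3 (blue) with Scrn1: over all cells of a plate (horizontal) and after ranking cells within Venus bins (vertical), as means of the plates; triangles mark genes among the highest or lowest. Nr1d1, whose reporter set the bins, drops from 0.43 to 0.06, and Cox6c (0.62 and 0.46) and Thy1 (−0.69 and −0.54) stay at the ends.

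The recorded Venus brightness of each cell, by which the bins were set, went the same way. Its correlation with Scrn1 was 0.49 on plate 1 and 0.43 on plate 2 over all cells, and 0.12 and 0.08 within bins. Inside single bins it ran from −0.10 in bin 4 to 0.30 in bin 3 on plate 1, and from −0.10 in bin 4 to 0.29 in bin 1 on plate 2. Forward scatter, a measure of cell size, had 0.04 and −0.06 with Scrn1 over all cells, and the total counts per cell −0.10 and 0.11.

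The genes least and most like Scrn1 kept much of their correlation inside the bins. Cells were not sorted on these genes, so this is not a like comparison with Nr1d1 or the reporter. Thy1 had −0.58 on plate 1 and −0.51 on plate 2, and Cox6c 0.46 and 0.46. Of the 10 genes highest within bins, 6 were among the 10 highest over all cells, Cox6c, Cox7b, Gstm2, Ank and Sub1 among them. The 4 that were not were the nuclear RNA Neat1 (mean 0.43), Sh3bgrl (0.43), and the ribosomal protein genes Rps4x (0.43) and Rpl7 (0.40).

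The other secernins had weak correlations with Scrn1 from cell to cell. Scrn2 had a correlation with Scrn1 of 0.04 and 0.01 on plates 1 and 2, and Scrn3 one of 0.14 and 0.02. Scrn2 stood at 8.16 CPM in the cells of plate 1 with at least 5 Scrn1 counts and 8.52 CPM in those with none, and at 9.85 and 9.63 CPM on plate 2. For Scrn3 the levels were 32.3 and 27.5 CPM on plate 1 and 29.8 and 29.8 CPM on plate 2, so that a gap was seen on plate 1 only, and the difference between the plates was not tested.

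The genes next to the secernins were read for comparison, 3 on each side by RefSeq order. Of 16 found in the table, 14 were tested and edgeR called 2 higher and 1 lower toward bright Venus, beside the 15.4% of all genes. Next to Scrn1, Mturn was higher by 0.11 ± 0.02 (SE) on the log2 scale per bin (adjusted p = 0.0274), while Fkbp14, a folding enzyme of the endoplasmic reticulum, had 0.09 ± 0.03 (adjusted p = 0.0578) and Chn2 −0.11 ± 0.05 (adjusted p = 0.194). None of the neighbours of Scrn1 had a correlation with it beyond −0.13 or 0.19 on either plate.

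Beside Scrn3, Ola1 was called with 0.09 ± 0.02 (SE) (adjusted p = 0.0124) and Wipf1, a relative of Wipf3, with −0.11 ± 0.03 (adjusted p = 0.0468), both in edgeR. Scrn2 had no neighbour called among the 5 tested.

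The 4 lists drawn from the known biology of the family were read in the same fit. Of 43 exocytosis genes 36 were tested, and 3 rose and 3 fell, which is 6 of 36 beside the 15.4% of all genes. Those that rose were Snap29 (0.10 log2 per bin, adjusted p = 0.0201) and Napa (0.07, adjusted p = 0.0211), of the SNARE machinery, and Exoc4, an exocyst subunit (0.10, adjusted p = 0.0477). Those that fell were Stxbp3, a syntaxin-binding protein (−0.17, adjusted p = 0.00439), and the syntaxins Stx6 (−0.10, adjusted p = 0.0260) and Stx2 (−0.07, adjusted p = 0.0488). At an unadjusted edgeR p under 0.05, which 29.8% of all genes passed, 8 were higher and 6 lower. DESeq2, which called 26.8% of the genes it tested, called 5 higher and 3 lower. With calls in both directions and 6 of 36 beside 15.4%, this is not read as a change of the list. The median of the list was −0.02, against 0.00 for all genes.

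Among 12 genes of contacts of the endoplasmic reticulum, which include the VAP proteins, edgeR called 1 higher and 0 lower, beside 15.4% of all genes. The 1 was Osbpl6, a lipid transfer protein, at 0, 0.0118, 0.0358 and 0.236 CPM in bins 1 to 4 of plate 1 and 0, 0.0131, 0.323 and 0.101 CPM on plate 2. It passed the low-count filter only through the bright bins, so neither its call nor its fitted 2.42 log2 per bin is read as a change. DESeq2 called 0 of the list, beside 26.8% of the genes it tested. At an unadjusted p under 0.05, which 29.8% of all genes passed, 3 were higher, Osbpl6 among them, and 1 lower. The median of the list was −0.01.

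Of 10 genes of other enzymes with an N-terminal nucleophile, edgeR called 0 of the 9 tested and DESeq2 0, with 2 at an unadjusted p under 0.05. Naaa, 1 of the 2, was at 0, 0.0118, 0.645 and 0.131 CPM in bins 1 to 4 of plate 1 and 0, 0, 0 and 0.278 CPM on plate 2. It passed the low-count filter only through the brighter bins and is not read as a change. Of 12 genes of the WASP-interacting proteins and the Arp2/3 complex, the actin nucleator near which Wipf3 acts, 11 were tested. EdgeR called 0 higher and 2 lower, Arpc5 (−0.07, adjusted p = 0.0193) and Wipf1 (−0.11, adjusted p = 0.0468). At an unadjusted p under 0.05, 0 were higher and 3 lower, and DESeq2 also called 0 higher and 3 lower. Of all genes, edgeR called 15.4%, and 29.8% passed the unadjusted p, while DESeq2 called 26.8% of those it tested. Beside these shares, 2 or 3 of 11 is not read as a change of the list. The medians of these lists were 0.00 and −0.03.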

How the data were processed

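Single-cell counts were read from the authors' deposited table of counts per gene and cell, with Venus, iRFP and scatter intensity per cell as deposited in the authors' metadata. STAR 2.7.11a, SAMtools, bedtools, HTSeq and the build GRCm39 are named in the submitters' processing notes; the annotation release and the use of strand are not given in the sources used here. Cells with at least 1000 genes, at least 0.1 of their plate's median total and at most 25% mitochondrial counts were kept. Counts were summed per plate and Venus bin. edgeR 4.0.16 was run with TMM, a low-count filter, a quasi-likelihood test and plate as a block. It gave the trend as a linear contrast over bins fitted as 4 levels, with plate taken as the replicate number. The fit was checked on simulated counts with equal dispersion in all genes, no plate difference, and trends in well-counted genes only. That check does not cover genes whose trend differs between plates, as that of Scrn1 did. DESeq2 1.42.0 was an alternative. The genes named were the 10 highest and 5 lowest by Spearman correlation with Scrn1, the 10 highest within bins, 3 neighbours on each side and up to 6 called genes per list. The members and lists were chosen with earlier results of these data known. Of the marker lists, blood genes summed to 6.31 to 12.7 CPM per group and neuronal genes to 0.0757 to 1.21 CPM, and mast cell genes are not analysed here. Some genes that the rule names are not reported here.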

Additional observations from a re-analysis of the deposited data

How the results depend on the processing

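Over 7 other fits of all cells (no TMM scaling, DESeq2, no low-count filter, no plate block, bin as a number in place of 4 levels, all cells kept, and a stricter cell filter), the trend stayed between 0.95 and 1.01 for Scrn1, between −0.09 and −0.07 for Scrn2 (adjusted p 0.121 to 0.272) and between 0.03 and 0.05 for Scrn3 (adjusted p 0.347 to 0.861). Without the plate as a replicate block the trend of Scrn1 was 0.95, and the count of called genes fell from 2843 to 1683, and it was 1858 with bin as a number. Library totals without TMM moved the share of higher calls from 44.0% to 57.8% and the median of all genes from 0.00 to 0.02. Values within each plate were read from the log2 CPM of the main fit, and no fit was run without a plate. They were 0.76 to 1.31 for Scrn1 (as given above), −0.10 to −0.08 for Scrn2 and 0.02 to 0.05 for Scrn3. These values have no test, and counts of called genes were not run on a single plate. In the cells with no Thy1 count, chosen after seeing the data, 392 genes were called and the trend of Scrn1 was 0.34, with fewer cells per sum. A flatter trend of Scrn1 was to be expected from this choice alone, since most of these cells held it. The mean correlation of Scrn1 with Thy1 was −0.69 by Spearman and −0.76 by Pearson. Depth limits the shares of Scrn2, which fell by thinning, and leaves Wipf3 untested.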

Other observations

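The genes that went with Scrn1 inside the Venus bins were unevenly spread over chromosomes, as assigned by GENCODE M21. This pattern was noticed in the data. Of the 50 genes with the highest correlation within bins, 17 lay on chromosome 15 and 10 on chromosome X, which hold 357 (4.14%) and 240 (2.78%) of the 8624 genes compared. Of the 50 lowest, 12 lay on chromosome 9, which holds 492 (5.71%) and also Thy1, Ncam1, Naalad2 and Rps25, and 0 lay on chromosome 15 or X.

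The shift ran through most genes of chromosome 15 rather than a few. Its median correlation with Scrn1 within bins was 0.13, with 88.0% of genes above 0, and that of chromosome X was 0.09, with 82.9% above 0. Chromosomes 2 and 17 were at 0.07 and 0.06, with 77.8% and 76.8% above 0. Chromosomes 16, 13, 4 and 5 were at −0.10, −0.09, −0.09 and −0.07, with 18.8, 12.5, 14.2 and 18.5% above 0. Chromosome 9, which holds Thy1, was nearer 0, at −0.04 with 35.6% above 0. Chromosome 6, which holds Scrn1, was at 0.01. Broad shifts were thus not particular to chromosomes 15 and X.

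The score of chromosome 15 genes per cell (over genes of at least 50 CPM, each centred on its mean over cells) did not follow the bins evenly. Its median in bins 1 to 4 was −0.14, −0.12, −0.08 and 0.09 on plate 1 and −0.06, −0.10, 0.13 and 0.09 on plate 2. Its correlation with Scrn1, 0.59 on plate 1 and 0.51 on plate 2, restates the pattern for which chromosome 15 was picked and supports nothing further.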
